A study of Mus musculus with 13 samples.

Results

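Wnt signalling was followed in the stromal cell clone UG26-1B6 through 8 genes: the ligands Wnt2, Wnt4, Wnt5a, Wnt5b and Wnt11, the receptor Ror2, and the target genes Axin2 and Lef1. They were taken by gene symbol from the 18193 genes that have a probe set with a single symbol on the array, and they carry 16 probe sets. The probe set with the highest mean over all 13 arrays stood for its gene. A gene was tested where its value exceeded 2.38, the median of all values, on at least 2 arrays. This left 12205 genes, among them 7 of the 8; Lef1 did not pass.

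UG26-1B6 is 1 clone of urogenital ridge cells from midgestation mouse embryos, used as a feeder layer for haematopoietic stem and progenitor cells. RNA was amplified and hybridised to Affymetrix mouse arrays, and levels are log2 values. The series compares stroma before and during co-culture with LSK cells, bone marrow cells that lack lineage markers, carry Sca-1 and Kit, and are rich in haematopoietic stem and progenitor cells. The first group, d0 (n = 3), is stroma collected by trypsinisation before co-culture. For LSK d1 (n = 3), LSK d2 (n = 3) and LSK d3 (n = 2), confluent stroma was irradiated with 30 Gy, seeded with LSK cells and kept for 24, 48 or 72 h. The medium control, medium d1 (n = 2), was harvested 24 h after a change of culture medium without LSK cells. The sources used here do not give whether d0 and medium d1 cells received radiation, or how LSK cells were removed before RNA isolation. Titles describe biological replicates and the design text technical ones, so the p-values cover the spread between these arrays, which may be technical.

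Wnt proteins are secreted lipid-modified ligands that bind Frizzled receptors. In the canonical branch, Frizzled and an LRP co-receptor stabilise beta-catenin, which enters the nucleus, binds TCF and LEF proteins and switches on target genes such as Axin2. Wnt5a is the best known ligand of the non-canonical branch, in which the receptor tyrosine kinase Ror2 acts without beta-catenin. In bone marrow, both branches have been tied to the upkeep of haematopoietic stem cells.

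The promoters of Wnt2, Ror2 and Axin2 are shown because all LSK d1 arrays of these 3 genes lay above all d0 and medium d1 arrays. The sequences are from RefSeq (GRCm38.p6), run 5′ to 3′ on the gene's strand, and span 250 bases before to 50 bases after the annotated start. Capitals mark a match, on either strand, to CTTTGA, the core of the motif bound by TCF and LEF proteins, or to TGANTCA, the motif of AP-1 factors. The Wnt2 window lies at chr6:18030396-18030695 (minus strand), the Ror2 window at chr13:53286075-53286374 (minus strand) and the Axin2 window at chr11:108920099-108920398 (plus strand).
Wnt2: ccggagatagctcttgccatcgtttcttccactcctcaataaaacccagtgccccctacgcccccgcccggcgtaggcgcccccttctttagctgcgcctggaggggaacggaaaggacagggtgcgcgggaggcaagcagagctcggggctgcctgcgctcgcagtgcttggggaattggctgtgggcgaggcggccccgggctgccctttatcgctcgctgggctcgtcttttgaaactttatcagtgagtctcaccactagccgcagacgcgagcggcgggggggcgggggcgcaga
Ror2: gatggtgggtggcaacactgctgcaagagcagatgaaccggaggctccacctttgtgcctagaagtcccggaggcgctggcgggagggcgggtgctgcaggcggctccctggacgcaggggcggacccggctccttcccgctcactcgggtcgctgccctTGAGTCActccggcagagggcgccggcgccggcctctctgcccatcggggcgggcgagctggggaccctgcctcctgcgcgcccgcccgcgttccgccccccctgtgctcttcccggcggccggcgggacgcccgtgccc
Axin2: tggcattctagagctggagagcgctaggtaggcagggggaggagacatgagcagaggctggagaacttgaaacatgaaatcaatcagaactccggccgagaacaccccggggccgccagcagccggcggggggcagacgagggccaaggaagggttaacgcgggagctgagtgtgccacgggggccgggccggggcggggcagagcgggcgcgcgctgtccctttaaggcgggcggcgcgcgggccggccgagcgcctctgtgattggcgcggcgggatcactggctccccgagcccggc
The Wnt2 and Axin2 windows held neither motif, and the Ror2 window held 1 AP-1 match, 90 bases before the start. Of 32851 promoter windows of the same length, 16.0% held CTTTGA and 7.81% held TGANTCA. Over the 7 members with an entry, 3 of 13 windows held CTTTGA (in Lef1, Wnt5b and Wnt11) and 2 held TGANTCA (in Wnt5b and Ror2). A match describes letters and not a bound site, and its absence says nothing about the factors.

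The stromal identity of the arrays was checked with 10 fibroblast and matrix markers. Of these, 8 lay above 5 on every array except LSK d2 replicate 1, where 4 did, and Thy1 and Lum lay at or near the lowest value of the table, 2.28, throughout. The summed level of 16 blood cell markers was 45.9 to 47.2 at d0, 59.6 to 72.1 on LSK d1, 79.0 to 134.4 on LSK d2, 89.9 to 101.2 on LSK d3, and 44.4 to 45.1 in medium d1. Between 5 and 11 of the 16 lay above 5 on a co-culture array and 0 or 1 without LSK cells, while Itgam lay at the lowest value everywhere and Kit did not exceed 2.38. Poly-A spike-in RNAs averaged 4.62 ± 1.24 at d0, 8.18 ± 1.44 on LSK d1, 8.87 ± 3.43 on LSK d2, 10.5 ± 2.11 on LSK d3 and 3.39 ± 0.10 in medium d1 (SD over arrays). LSK d2 replicate 1 stood apart: its highest correlation with another array, across genes, was 0.785, against 0.936 to 0.996 for the other 12. Its 3′ probe sets for Gapdh exceeded the 5′ set by 8.96, against 5.79 on LSK d3 replicate 2 and at most 3.82 on the other arrays. Calls that change with it are given with and without it. In these bulk samples, fewer cells of a type and less RNA per cell cannot be told apart.

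The plot of all members by group gives the level of the 8 genes on each array. Wnt5a and Ror2 lay between 7.65 and 10.95 on all arrays other than LSK d2 replicate 1. Wnt4 and Axin2 lay between 3.90 and 7.55. Wnt5b never exceeded 5.67, Wnt2 never exceeded 5.53 and Wnt11 never exceeded 3.55. Probe sets of different genes bind with different strength, so these levels set no order between genes. Small groups often do not overlap: LSK d1 and medium d1 were fully separated for 62.5% of the 12205 genes, LSK d1 and d0 for 39%, LSK d2 and d0 for 22.7%, LSK d3 and d0 for 35.6%, and medium d1 and d0 for 43.3%. For splits that pool several groups, no such share was counted.

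**Figure D1:**
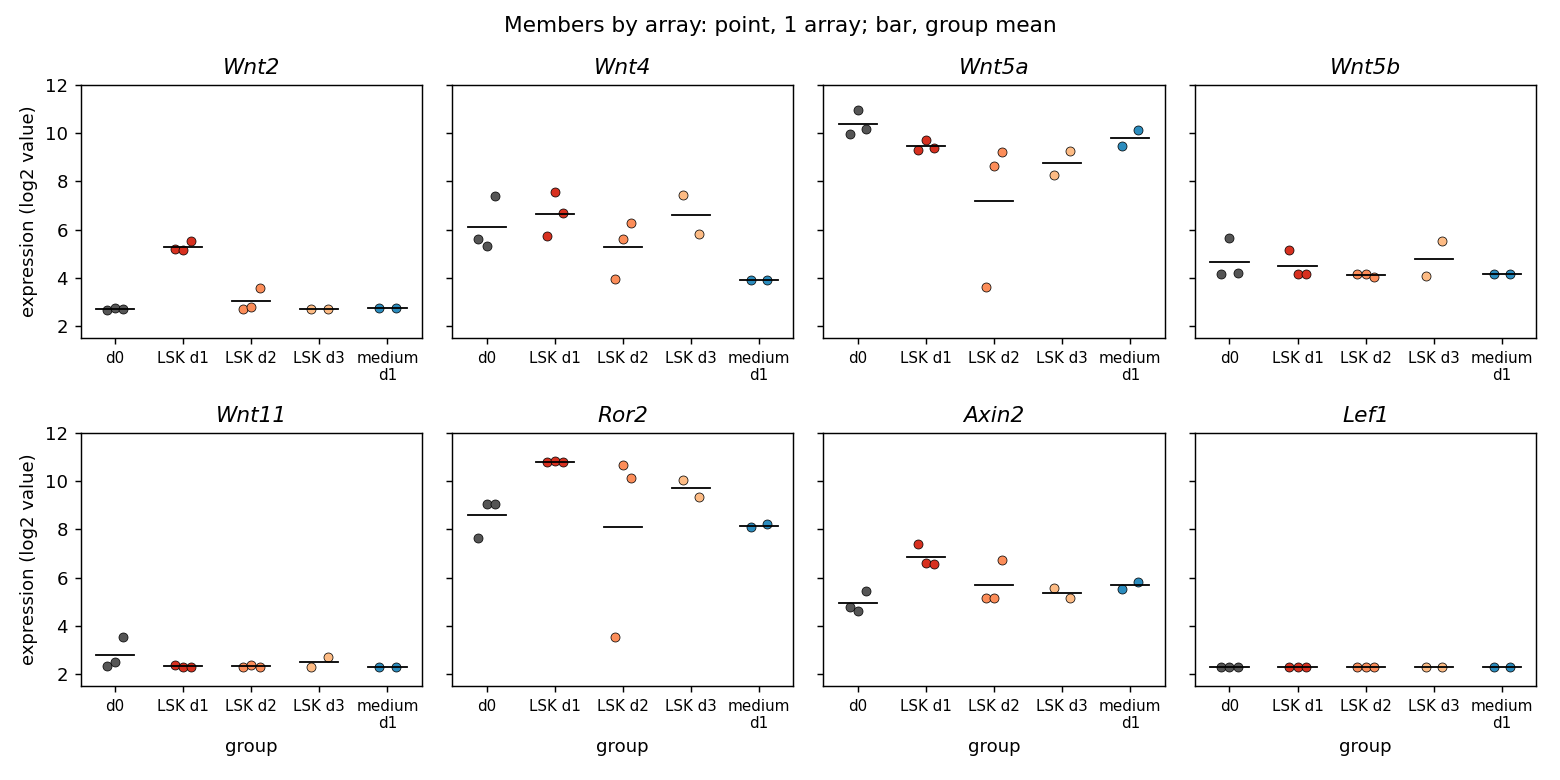
Expression (log2 value, vertical axis) of the 8 genes in d0, LSK d1, LSK d2, LSK d3 and medium d1, 1 point per array, with a bar at each group mean. Wnt2 lies between 5.13 and 5.53 on the LSK d1 arrays and at most at 3.57 elsewhere, Ror2 and Axin2 are also highest on LSK d1, and LSK d2 replicate 1 is the low point of Wnt5a and Ror2.

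Wnt2 was higher after 1 day of co-culture than in any other group. Wnt2 (probe set 1449425_at, chromosome 6:17985474-18032772, GRCm38.p6) encodes a ligand that mostly signals through beta-catenin and is known for its part in lung and vessel development. Its level was 2.67, 2.72 and 2.69 at d0, 5.19, 5.13 and 5.53 on LSK d1, 2.71, 2.77 and 3.57 on LSK d2, 2.71 and 2.69 on LSK d3, and 2.76 and 2.72 in medium d1. All 3 LSK d1 arrays lay above the other 10, and among those 10 the next highest was LSK d2 replicate 3.

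Against the medium control of the same day, Wnt2 was higher on LSK d1 by 2.54 ± 0.26 on the log2 scale (SE, 95% interval 1.95 to 3.14, adjusted p = 0.00298), with means of 5.28 ± 0.22 on LSK d1 and 2.74 ± 0.02 in medium d1 (SD). Wnt2 was the only member past the adjusted threshold of 0.05 there, 1 of 7, where 5.2% of all 12205 genes passed (2.15% higher and 3.05% lower). Of those genes, 263 were higher and 372 lower, or 372 and 320 after quantile normalisation between arrays. Against d0, Wnt2 was higher on LSK d1 by 2.59 ± 0.24 (95% interval 2.06 to 3.12, adjusted p = 0.00228), again the only member called, where 2.15% of all genes passed (0.828% higher and 1.33% lower). Of those, 101 were higher and 162 lower, or 154 and 145 after quantile normalisation. At an unadjusted p under 0.05, 3 of 7 members (42.9%; Wnt2, Wnt4 and Axin2) passed against medium d1, where 20.9% of all genes did, and 2 of 7 (28.6%; Wnt2 and Axin2) against d0, where 17.3% did. The call against medium d1 was lost when medium d1 replicate 2 was left out (adjusted p = 0.0592), and that against d0 held in all 13 fits that left out an array. The values of the other groups lie close to the lowest value of the table, 2.28, so the size of the difference may be understated.

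The fall after LSK d1 was tested directly. Wnt2 was lower on LSK d2 than on LSK d1 by 2.27, a log2 difference of -2.27 ± 0.24 (95% interval -2.80 to -1.74, adjusted p = 0.0431). On LSK d3 the difference to LSK d1 was -2.59 ± 0.26 (95% interval -3.18 to -1.99, adjusted p = 0.0363). In each of these 2 comparisons Wnt2 was the single call among 12205 genes, or 0.00819%. The LSK d2 arrays (2.71 to 3.57) and the LSK d3 arrays (2.69 and 2.71) did not overlap with LSK d1 (5.13 to 5.53), as was so for 12.4% and 19.8% of all genes. These 2 calls depended on the arrays in the fit: with 1 array left out at a time, the first held in 1 of 13 fits and the second in 4 of 13, with differences of -2.54 to -2.11 and -2.66 to -2.46. Without LSK d2 replicate 1, Wnt2 was at -2.11 ± 0.23 on LSK d2 (adjusted p = 0.0580) and -2.59 ± 0.23 on LSK d3 (adjusted p = 0.00323). Of 7 other alternatives, 2 made the first call and 3 the second. With every probe set tested singly on all arrays, neither was called (limma, adjusted p = 0.0633 and 0.0532), and 0 of 21443 probe sets passed in either comparison. Against d0, the difference was 0.33 ± 0.24 on LSK d2 (adjusted p = 0.369) and 0.01 ± 0.26 on LSK d3 (adjusted p = 1).

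Blood markers and spike-ins moved with Wnt2 in the comparisons of LSK d1 with d0 and medium d1. The summed blood markers were 59.6 to 72.1 on LSK d1, 45.9 to 47.2 at d0 and 44.4 to 45.1 in medium d1. The spike-in means were 6.78 to 9.67 on LSK d1, 3.64 to 6.01 at d0 and 3.31 to 3.46 in medium d1. On the 5 LSK d2 and LSK d3 arrays, where Wnt2 was 2.69 to 3.57, the marker sums were 79.0 to 134.4 and the spike-in means 6.87 to 12.8. The part of either in the Wnt2 values was not tested.

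Across the 13 arrays, the genes whose level was most like that of Wnt2 were Fbxo46, an F-box protein (Pearson r = 0.96), Chadl, a matrix proteoglycan of the chondroadherin kind (0.95), and Mt4, a metallothionein (0.92). Those genes stayed low throughout: Fbxo46 lay at 3.15 to 3.38 on LSK d1 and at 2.87 to 3.00 elsewhere.

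Wnt4 was low in the medium control and variable elsewhere. Wnt4 (1450782_at, chromosome 4:137277635-137299501) encodes a ligand of kidney and gonad development that acts in both branches. It measured 5.61, 5.33 and 7.38 at d0, 5.74, 7.55 and 6.70 on LSK d1, 3.96, 5.61 and 6.27 on LSK d2, 7.41 and 5.82 on LSK d3, and 3.90 and 3.91 in medium d1. The 2 medium arrays lay below all other arrays, with LSK d2 replicate 1 next.

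The difference of LSK d1 to medium d1 was 2.76 ± 0.86 (95% interval 0.83 to 4.70), which did not pass the threshold over all genes (adjusted p = 0.0981). It passed without LSK d2 replicate 1 (2.76 ± 0.75, adjusted p = 0.0390), a setting in which 17.2% of all genes passed. Medium d1 differed from d0 by -2.21 ± 0.86 (95% interval -4.14 to -0.27, adjusted p = 0.432). No member was called between medium d1 and d0 by limma, where 0.328% of all genes were (0.221% higher and 0.107% lower), and Wnt4 was the only member with an unadjusted p under 0.05 (1 of 7, or 14.3%, against 9.45% of all genes). LSK d1 differed from d0 by 0.56 ± 0.77 (adjusted p = 0.861), and the arrays of these groups overlapped. The second Wnt4 probe set, 1441687_at, lay at 3.34 and 3.19 in medium d1 and at 3.22 to 4.20 elsewhere, and its difference of LSK d1 to medium d1 was 0.60 ± 0.23 (adjusted p = 0.167 over 21443 probe sets).

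Wnt5a was abundant and read differently by its probe sets. Wnt5a (1436791_at, chromosome 14:28504543-28527448) encodes the main ligand of Ror2. It measured 9.96, 10.95 and 10.18 at d0, 9.28, 9.72 and 9.37 on LSK d1, 3.63, 8.64 and 9.22 on LSK d2, 8.25 and 9.26 on LSK d3, and 9.46 and 10.12 in medium d1. Every co-culture array lay below every d0 array, while LSK d1 overlapped with medium d1.

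The difference to d0 was -0.90 ± 1.20 on LSK d1 (adjusted p = 0.850), -3.20 ± 1.20 on LSK d2 (adjusted p = 0.143) and -1.61 ± 1.34 on LSK d3 (adjusted p = 0.689). No member was called by limma on LSK d2 against d0, where 2.26% of all genes were (0.639% higher and 1.62% lower), nor on LSK d3 against d0, where 0.819% were (0.352% higher and 0.467% lower). On LSK d2, 78 genes were higher and 198 lower, or 105 and 123 after quantile normalisation. At an unadjusted p under 0.05, 1 of 7 members (14.3%) passed on LSK d2, which was Wnt5a, against 26.3% of all genes, and 0 of 7 on LSK d3, against 13.8%. The spread of LSK d2, 3.07 (SD), came largely from replicate 1. Without that array the difference to d0 was -1.43 ± 0.40 on LSK d2 (adjusted p = 0.0964) and -1.61 ± 0.40 on LSK d3 (adjusted p = 0.0481), where 7.69% of all genes passed.

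A second probe set of Wnt5a, 1437673_at, had the wider gap between d0 and co-culture. It measured 9.43, 11.33 and 10.12 at d0, 8.14, 7.60 and 8.28 on LSK d1, 5.66, 7.63 and 8.23 on LSK d2, 7.43 and 7.23 on LSK d3, and 9.30 and 9.48 in medium d1. All 8 co-culture arrays lay below all 5 arrays without LSK cells, a split whose share over all probe sets was not counted. Tested on its own among 21443 probe sets, it differed from d0 by -2.28 ± 0.65 on LSK d1 (adjusted p = 0.111), -3.12 ± 0.65 on LSK d2 (adjusted p = 0.0448) and -2.96 ± 0.72 on LSK d3 (adjusted p = 0.100), in comparisons where 2.07%, 2.32% and 1.04% of probe sets passed. These differences without LSK d2 replicate 1 were -2.28 ± 0.44 (adjusted p = 0.0195), -2.36 ± 0.49 (adjusted p = 0.0530) and -2.96 ± 0.49 (adjusted p = 0.0132), where 8.63%, 1.96% and 6.93% of probe sets passed. The call on LSK d2 was thus lost and those on LSK d1 and LSK d3 were gained. With all arrays, against medium d1, LSK d1 differed by -1.39 ± 0.72 (adjusted p = 0.320), where 7.24% of probe sets passed.

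The third probe set, 1448818_at, pointed the other way on most arrays. It lay at 7.43 to 7.74 at d0, 7.88 to 8.64 on LSK d1, 2.33, 9.51 and 7.73 on LSK d2, 7.995 and 8.70 on LSK d3, and 7.46 and 7.57 in medium d1. LSK d1 was above d0 by 0.59 ± 1.43 (adjusted p = 0.989), or 0.59 ± 0.43 without LSK d2 replicate 1 (adjusted p = 0.458), and did not overlap with d0. These groups were fully separated for 39% of all genes, and the share over probe sets was not counted. The remaining set, 1456976_at, lay at the lowest value on all 13 arrays. The direction of Wnt5a after co-culture therefore depended on the probe set, except on LSK d2 replicate 1, which was lowest in the 3 sets that varied. The summed blood markers also separated all co-culture arrays (at least 59.6) from those without LSK cells (at most 47.2), as Ror2 and 1437673_at nearly or fully did, and their part in these values was not tested.

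**Figure D2:**
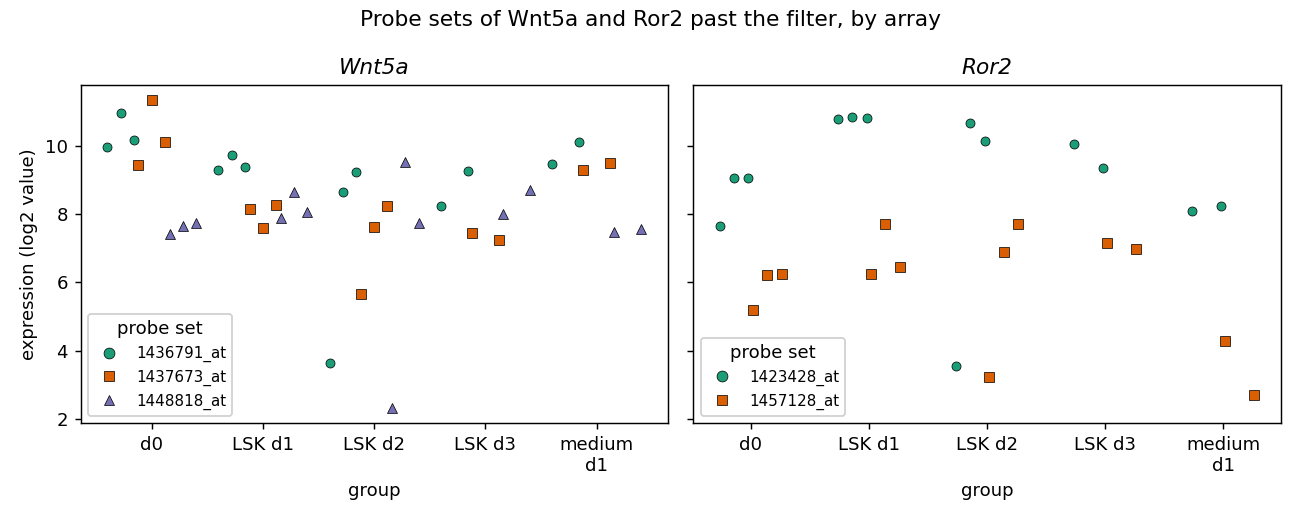
Expression (log2 value, vertical axis) of the Wnt5a and Ror2 probe sets past the filter in each group, 1 point per array and 1 marker shape per probe set. For Wnt5a, 1437673_at is lower on all co-culture arrays than on d0 and medium d1 arrays while 1448818_at is not, and for Ror2 both sets have their medium d1 arrays below LSK d1.

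Wnt5b and Wnt11 were at the edge of measurement. Wnt5b, the close relative of Wnt5a, is read by 1439373_x_at, whose name marks probes that may also bind other transcripts. It held the identical value of 4.16 on 7 of 13 arrays, and exceeded 4.19 only on d0 replicate 2 (5.67), LSK d1 replicate 1 (5.15) and LSK d3 replicate 2 (5.51). Its other probe set lay between 2.36 and 2.43. Wnt11, a non-canonical ligand of heart and kidney development, lay at 2.29 to 2.72 on 12 arrays and at 3.55 on d0 replicate 3. Neither gene was called in any of the 7 comparisons, with differences of -0.56 to 0.33 for Wnt5b and -0.50 to 0.18 for Wnt11.

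Ror2 was higher on LSK d1 than on every array of d0 and medium d1. Ror2 (1423428_at, chromosome 13:53109317-53286124) encodes the receptor tyrosine kinase through which Wnt5a acts in skeleton and limb. It measured 7.65, 9.04 and 9.07 at d0, 10.78, 10.85 and 10.80 on LSK d1, 3.55, 10.66 and 10.14 on LSK d2, 10.05 and 9.35 on LSK d3, and 8.08 and 8.22 in medium d1. All co-culture arrays except LSK d2 replicate 1 lay above all 5 arrays without LSK cells, a split whose share over all genes was not counted.

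With all arrays in the fit, LSK d1 differed from medium d1 by 2.66 ± 1.71 (95% interval -1.18 to 6.49, adjusted p = 0.457) and from d0 by 2.22 ± 1.53 (95% interval -1.21 to 5.66, adjusted p = 0.543). The standard error was set by LSK d2 replicate 1, which is in neither comparison but shares the estimate of spread. Without that array the same differences were 2.66 ± 0.42 (adjusted p = 0.00765, where 17.2% of all genes passed) and 2.22 ± 0.38 (adjusted p = 0.0125, where 10.6% passed). Fits restricted to the arrays compared, which do not hold that array either, also called both. Of 12205 genes, those fits called 4574 against medium d1 and 1786 against d0. With all arrays the counts were 635 and 263, so a call in the restricted fits sets Ror2 little apart.

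The sign of Ror2 on LSK d2 against d0 turned with the same array. LSK d2 differed from d0 by -0.47 ± 1.53 (adjusted p = 0.859) with it and by 1.81 ± 0.42 (adjusted p = 0.0634, where 2.48% of all genes passed) without it. LSK d3 differed from d0 by 1.12 ± 1.71 (adjusted p = 0.894), or 1.12 ± 0.42 (adjusted p = 0.145) without that array. LSK d2 and LSK d3 differed from LSK d1 by -2.69 ± 1.53 (adjusted p = 0.449) and -1.11 ± 1.71 (adjusted p = 1), and without LSK d2 replicate 1 by -0.41 ± 0.42 (adjusted p = 0.799) and -1.11 ± 0.42 (adjusted p = 0.613).

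The second Ror2 probe set, 1457128_at, measured 5.18, 6.21 and 6.25 at d0, 6.24, 7.72 and 6.45 on LSK d1, 3.22, 6.88 and 7.71 on LSK d2, 7.16 and 6.96 on LSK d3, and 4.29 and 2.69 in medium d1. LSK d1 lay above medium d1 by 3.31 ± 1.15 (adjusted p = 0.122 over all probe sets) but overlapped with d0 (0.93 ± 1.03, adjusted p = 0.803). Without LSK d2 replicate 1 the difference to medium d1 was called (3.31 ± 0.61, adjusted p = 0.0105, where 17.4% of probe sets passed) and that to d0 was not (adjusted p = 0.346). In this set medium d1 lay below d0 by a log2 difference of -2.39 ± 1.15 (adjusted p = 0.507), against -0.43 ± 1.71 in the first set. The genes most like Ror2 over the 13 arrays were Uck1, a uridine-cytidine kinase, Ncaph2, a condensin II subunit, and Nif3l1, with Pearson r of 0.98 each, or 0.94, 0.93 and 0.94 over the 12 arrays without LSK d2 replicate 1. The genes most like Wnt5a were Ly75, an endocytic receptor, Nid1, a basement membrane protein, and Baz2a, a chromatin protein, with r of 0.98 each, or 0.92, 0.87 and 0.86 without that array.

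**Figure D3:**
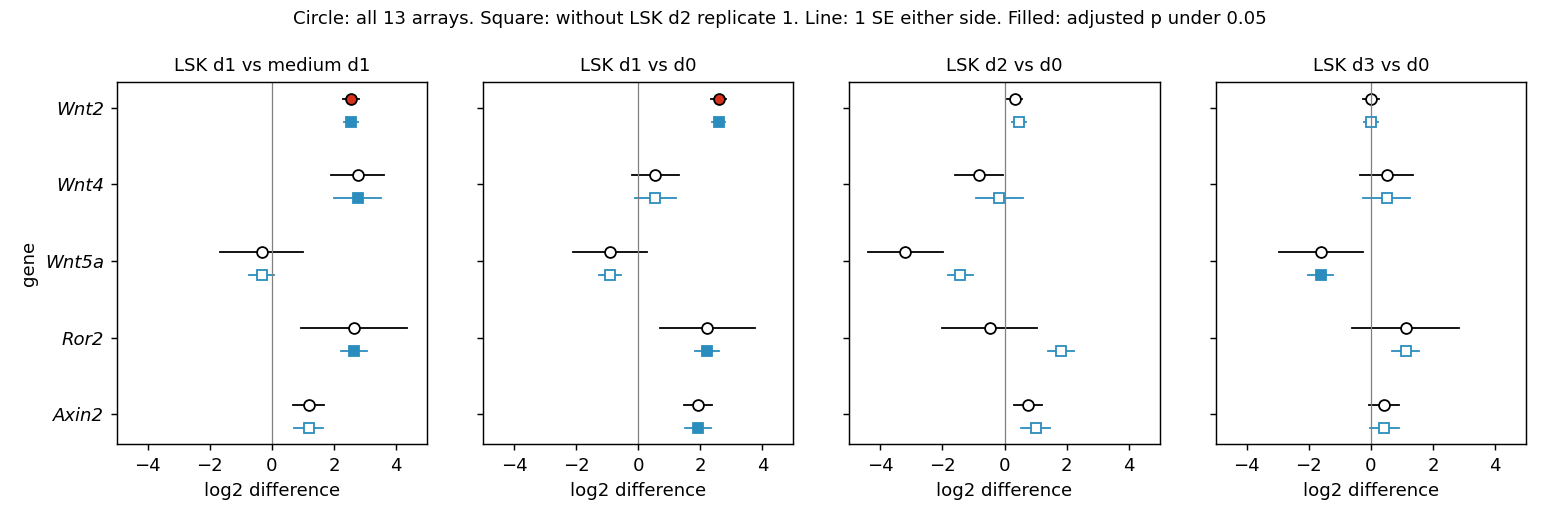
Log2 difference (horizontal axis, line 1 SE either side) of Wnt2, Wnt4, Wnt5a, Ror2 and Axin2 in 4 comparisons, with all 13 arrays (circles) and without LSK d2 replicate 1 (squares), filled where the adjusted p was under 0.05. Wnt2 is called on LSK d1 in both fits; for Ror2 on LSK d1 the estimate is the same and the error against medium d1 is 1.71 with and 0.42 without that array.

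Axin2 was highest on LSK d1, at a p near the threshold. Axin2 (1436845_at, chromosome 11:108917828-108950783) encodes a scaffold of the complex that degrades beta-catenin and is a widely used readout of canonical signalling. It measured 4.77, 4.60 and 5.44 at d0, 7.39, 6.62 and 6.58 on LSK d1, 5.17, 5.17 and 6.72 on LSK d2, 5.56 and 5.17 on LSK d3, and 5.54 and 5.82 in medium d1. The LSK d1 arrays lay above all d0, medium d1 and LSK d3 arrays, and only LSK d2 replicate 3 reached into their range. The identical value of 5.17 on LSK d2 replicates 1 and 2 and LSK d3 replicate 2 recurs to the last deposited digit, and 2 of the d0 arrays lay below it.

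LSK d1 differed from d0 by 1.93 ± 0.44 (95% interval 0.94 to 2.92), with adjusted p = 0.0608. The adjusted p was 0.0117 to 0.207 when arrays were left out in turn, under 0.05 in 3 of 13 fits, each of which lacked 1 LSK d2 array; without LSK d2 replicate 1 it was 0.0261, where 10.6% of all genes passed. After quantile normalisation the difference was 2.01 (adjusted p = 0.0224). Against medium d1 the difference was 1.19 ± 0.49 (95% interval 0.08 to 2.29, adjusted p = 0.206), and 0.122 was the adjusted p without LSK d2 replicate 1. LSK d2 and LSK d3 differed from LSK d1 by -1.17 ± 0.44 (adjusted p = 0.378) and -1.50 ± 0.49 (adjusted p = 1). The other Axin2 probe set lay at the lowest value on 12 arrays and at 2.51 on LSK d2 replicate 1.

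Lef1, which encodes a DNA-binding partner of beta-catenin and is itself a target of the pathway, lay at the lowest value of 2.28 in both its probe sets on all 13 arrays. It was not tested. Of its relatives that bind the same kind of site, Tcf7l1 lay above 5 on all 13 arrays and Tcf7l2 on all arrays other than LSK d2 replicate 1.

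The other genes of the pathway were counted by role, over 108 listed genes of which 107 are on the array and 79 were tested. Of 14 other Wnt ligands, 5 were tested and 1, Wnt9a, lay above 5 on the 12 arrays other than LSK d2 replicate 1. Of 15 receptors and co-receptors, 8 did so: Fzd1, Fzd2, Fzd3, Fzd5, Fzd6, Fzd7, Lrp6 and Ryk. Wls, which carries Wnt proteins to the cell surface, did as well, as did 9 of 12 cytoplasmic relay genes, among them Ctnnb1 (beta-catenin), Apc and Gsk3b.

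Few of the 79 passed a test. On LSK d1 against medium d1, 1 was higher and 1 lower (2.53%, against 5.2% of all genes), and their median difference was -0.02 against 0.00 over all genes. Bcl9, a co-activator that binds beta-catenin, measured 6.74, 6.62 and 6.72 on LSK d1 and 3.55 and 3.40 in medium d1 (3.22 ± 0.52, adjusted p = 0.0145). Its d0 arrays lay at 6.32 to 6.80, so the medium arrays were the low ones (medium d1 against d0 -3.02 ± 0.52, adjusted p = 0.0530, or 0.0191 without LSK d2 replicate 1, where 1.36% of all genes passed). Rhoa, the small GTPase of the non-canonical relay, measured 10.50, 10.47 and 10.47 on LSK d1 and 11.44 and 11.64 in medium d1 (-1.06 ± 0.20, adjusted p = 0.0250). Its d0 arrays, at 11.30, 10.84 and 10.71, lay below both medium arrays and above all LSK d1 arrays. Full separation from d0 was so for 43.3% of all genes in medium d1 and 39% on LSK d1. LSK d1 differed from d0 by -0.47 ± 0.18, which did not pass (limma, adjusted p = 0.221), so part of the called difference lay in the higher medium arrays.

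Secreted modulators hold or strengthen Wnt ligands outside the cell. The median difference of their 7 tested genes on LSK d1 against d0 was -2.18, against 0.00 over all genes. It includes Frzb, which lay at 2.97 to 6.26 at d0 and at most at 2.36 elsewhere. Frzb passed the filter of 2.38 through d0 alone, which fixed the direction of its difference to d0, so medians against d0 that hold Frzb are not free of the filter. The remaining differences on LSK d1 against d0 were -4.75 (Sfrp2), -4.49 (Rspo2), -2.18 (Sfrp1), -0.52 (Rspo3), -0.01 (Dkk3) and 0.08 (Dkk2). The same 7 genes had a median of -1.46 in medium d1 against d0 and of -0.64 on LSK d1 against medium d1. Of all 79 pathway genes, 1 passed on LSK d1 against d0 (1.27%, against 2.15% of all genes), and it was of this role. Sfrp2, a secreted Frizzled-related protein that binds Wnt ligands, measured 10.08, 9.71 and 8.48 at d0, 6.02, 3.95 and 4.04 on LSK d1, 2.52, 2.49 and 5.21 on LSK d2, 5.61 and 4.36 on LSK d3, and 6.95 and 6.89 in medium d1. No array of the other groups reached the d0 arrays. Its difference to d0 was -4.75 ± 0.84 on LSK d1 (adjusted p = 0.0298), -6.02 ± 0.84 on LSK d2 (adjusted p = 0.0150), -4.43 ± 0.94 on LSK d3 (adjusted p = 0.0731) and -2.50 ± 0.94 in medium d1 (adjusted p = 0.407). Between LSK d1 and medium d1 Sfrp2 differed by -2.25 ± 0.94 (adjusted p = 0.207). Its difference to d0 without LSK d2 replicate 1 was -4.75 ± 0.83 on LSK d1 (adjusted p = 0.0132), -5.57 ± 0.92 on LSK d2 (adjusted p = 0.0283) and -4.43 ± 0.92 on LSK d3 (adjusted p = 0.0272), so all 3 were called. In that fit 10.6%, 2.48% and 7.69% of all genes passed in these comparisons.

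On LSK d2, Rspo2 and Jag1 were also lower than at d0, so 3 of 79 genes passed (3.8%, against 2.26% of all genes). Rspo2, an R-spondin that strengthens Wnt signalling at the receptor, measured 3.29, 3.30 and 7.69 on LSK d2 and 11.74, 11.91 and 10.02 at d0 (-6.46 ± 1.30, adjusted p = 0.0425). In the other groups Rspo2 lay at 7.90, 6.23 and 6.07 on LSK d1, 9.06 and 5.41 on LSK d3, and 9.15 and 9.23 in medium d1. The medium arrays, without LSK cells, thus also lay below d0. Jag1, a Notch ligand and Wnt target, measured 3.35, 4.71 and 6.79 on LSK d2 and 8.47, 9.004 and 7.99 at d0 (-3.54 ± 0.72, adjusted p = 0.0425). The differences without LSK d2 replicate 1 were -5.72 ± 1.42 for Rspo2 (adjusted p = 0.0748) and -2.74 ± 0.58 for Jag1 (adjusted p = 0.0509), and neither was called. The 79 genes had a median difference of -0.74 on LSK d2 and all 12205 genes one of -0.29. Quantile normalisation moved the median of all genes by 0.26 there and by 0.14 on LSK d2 against LSK d1. Blood markers and spike-ins were also higher on the co-culture arrays than at d0, and their part in the fall of Sfrp2, Rspo2 and Jag1 was not tested.

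None of the 12 other target genes, among them Myc, Ccnd1, Nkd2 and Ccn4, was called on LSK d1 against medium d1 or d0. Of all genes, 5.2% and 2.15% passed in these comparisons, so few calls among 12 genes could be looked for. Sp5, Nkd1 and Tnfrsf19 had means of at most 2.51 in these groups, close to the lowest value of 2.28, which limits what their tests can show. The median difference of the 12, with these low genes included, was -0.04 against medium d1 and 0.00 against d0. Whether the target genes as a set followed Axin2, which was highest on LSK d1, was not tested. Without LSK d2 replicate 1, 6 of the 79 pathway genes were called on LSK d1 against medium d1 (7.59%, against 17.2% of all genes) and 4 against d0 (5.06%, against 10.6%). Bcl9 and Rhoa were among the 6 and Sfrp2 among the 4. Nkd2, an inhibitor induced by the pathway, was higher on LSK d1 than in medium d1 (1.39 ± 0.37, adjusted p = 0.0376), and Jag1 was lower than at d0 (-2.11 ± 0.52, adjusted p = 0.0387). In that fit Axin1, the relative of Axin2, was higher than in medium d1 (1.77 ± 0.40, adjusted p = 0.0223), and Ctnnb1 was lower than at d0 (-0.67 ± 0.16, adjusted p = 0.0349). Rac1, a small GTPase of the non-canonical relay, and Tle4, a co-repressor that binds TCF proteins, were lower than in medium d1 (-1.26 ± 0.29, adjusted p = 0.0235, and -1.24 ± 0.35, adjusted p = 0.0455). Mapk9, a JNK kinase, was lower than at d0 (-0.89 ± 0.16, adjusted p = 0.0150).

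With all 13 arrays, no pathway gene was called by limma on LSK d3 against d0, in medium d1 against d0, or between days of co-culture. At an unadjusted p under 0.05, 9 of 79 passed on LSK d3 (11.4%, against 13.8% of all genes) and 7 in medium d1 (8.86% against 9.45%). Between days, 5 passed on LSK d2 against LSK d1 (6.33% against 12.6%) and 1 on LSK d3 against LSK d1 (1.27% against 2.93%). Without LSK d2 replicate 1, 3 of 79 were called on LSK d3 against d0 (3.8%, against 7.69% of all genes). They were Lrp6, Sfrp2 and Mapk9 (-1.12 ± 0.18, adjusted p = 0.0121). In that fit Bcl9 alone was called in medium d1 against d0 (1.27% against 1.36%), and no pathway gene between days.

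**Figure D4:**
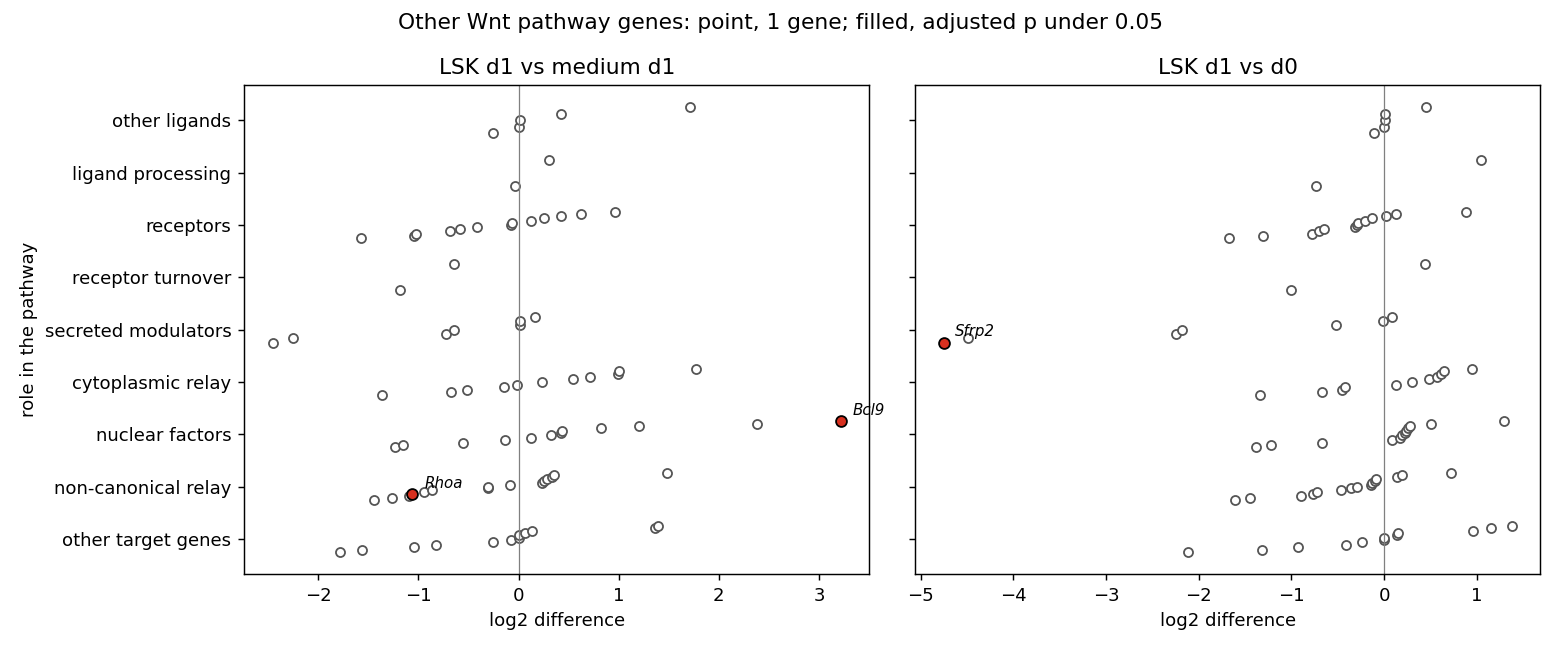
Log2 difference (horizontal axis) of the 79 tested pathway genes by role (vertical axis) on LSK d1 against medium d1 and against d0, 1 point per gene, filled and named where the adjusted p was under 0.05. Bcl9 and Rhoa are called against medium d1 and Sfrp2 against d0, and 4 secreted modulators (Sfrp2, Rspo2, Frzb and Sfrp1) and the target gene Jag1 lie beyond -2 against d0. Frzb passed the filter only through its d0 arrays.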

How the data were processed

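The authors deposited 1 log2 value per probe set for each of 13 arrays; per the submitters' processing notes the tools were RMA and GCRMA, with no version and no statement of which made this table. The log2 scale was read from the values (2.28 to 15.7). Scanner files were not used here, and array number limits precision. Of 45101 probe sets, 64 were controls, 34945 had 1 gene symbol in the platform annotation, 932 several and 9160 none. Genes above 2.38 on at least 2 arrays were kept. Arrays were grouped by title. All 13 entered 1 fit of group means in limma 3.58.1 (R 4.3.3, lmFit, contrasts, eBayes), with 7 comparisons and Benjamini-Hochberg adjustment over 12205 genes. The fit was tested on simulated arrays with 200 changed genes, split evenly between log2 sizes of 2 and 4. It called 33 to 62 of those of size 2 and 65 to 85 of those of size 4, so changes of these sizes were often missed. Results are log2 differences ± standard error. Named were the 8 members, up to 3 called genes per pathway role with the smallest adjusted p, and the 3 genes most correlated with Wnt2, Wnt5a and Ror2; other names were chosen after their values were seen. Members and lists were chosen with earlier results of these data known. Alternatives changed the filter, normalisation, probe-set rule, arrays fitted and replicate block; every probe set tested singly, also without LSK d2 replicate 1, and the removal of LSK d2 replicate 1 with LSK d3 replicate 2 were added after seeing the data. Members' coordinates and sequences are from RefSeq (GRCm38.p6).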

Additional observations from a re-analysis of the deposited data

Results flagged for a closer look

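The level of Wnt2 differed between the first day of co-culture and later days in the fit of all 13 arrays. The log2 difference of LSK d2 to LSK d1 was -2.27, and that of LSK d3 to LSK d1 was -2.59. All 3 LSK d1 arrays lay above all LSK d2 and LSK d3 arrays in both cases. Both adjusted p lay near the threshold (limma, 0.0431 and 0.0363), and the calls held in 1 and 4 of 13 fits that left out an array and in 2 and 3 of 7 other alternatives. Quantile normalisation, the stricter filter, the replicate block and a fit of only the arrays compared each lost both. With every probe set tested singly, both were lost as well (limma, adjusted p = 0.0633 and 0.0532). What underlies the difference was not tested.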

How the results depend on the processing

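The call of Wnt2 on LSK d1 held in 7 of 7 alternatives other than leaving out an array, against medium d1 (adjusted p 0.00233 to 0.0217) and against d0 (0.00214 to 0.00770), and it was lost in 1 of 13 fits without an array against medium d1. Leaving out an array in turn gave 0 to 3 members on LSK d1 against medium d1, 1 to 3 on LSK d1 against d0, 0 to 1 on LSK d2 and on LSK d3 against d0, 0 to 2 on LSK d2 against LSK d1 and 0 to 1 on LSK d3 against LSK d1. The counts of genes called in those fits ranged from 7 to 2103 (635 with all arrays), 9 to 1290 (263), 26 to 3497 (276), 4 to 939 (100), 0 to 1887 (1) and 0 to 106 (1) in the same order, and from 8 to 166 (40) in medium d1 against d0. The widest of these followed the removal of an LSK d2 array. Wnt5a was called on LSK d2 against d0 without LSK d2 replicate 3 (adjusted p = 0.0294), and Axin2 on LSK d2 against LSK d1 in that same fit (0.0121). That fit kept LSK d2 replicates 1 and 2, where Wnt5a was 3.63 and 8.64. Without replicate 1 instead, Wnt5a was not called there (-1.43, adjusted p = 0.0964). Of 12205 genes, fits without an array called up to 3497 in the first comparison and up to 1887 in the second.

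With only the arrays compared, 3 members and 4574 genes were called on LSK d1 against medium d1, 3 and 1786 on LSK d1 against d0, 0 and 0 for both comparisons with LSK d1 on later days, and 83 genes in medium d1, 0 on LSK d2 and 26 on LSK d3 against d0. Without LSK d2 replicate 1 and LSK d3 replicate 2, chosen after seeing the data, the counts were 3 members and 2579 genes on LSK d1 against medium d1, 3 and 1657 on LSK d1 against d0, 371 genes in medium d1 against d0, 422 on LSK d2 against d0, 1 member (Wnt5a) and 690 genes on LSK d3 against d0, and 12 and 105 genes on LSK d2 and LSK d3 against LSK d1. With no filter, 162 genes were called on LSK d1 and 106 on LSK d2 against d0, and 0 (0 members) and 11 on LSK d2 and LSK d3 against LSK d1. With the stricter filter, 146 genes were called on LSK d1, 15 in medium d1 and 52 on LSK d3 against d0, and 0 genes and members on LSK d2 and LSK d3 against LSK d1. Quantile normalisation gave 64 genes on LSK d3 against d0, 2 members (Wnt2 and Axin2) on LSK d1 against d0 and 0 genes and members between days. The cause of these changes was not tested.

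Over 23 pairs of arrays with the same replicate number, the deviations from the group means correlated at -0.371 to 0.261, with 8 over 0.1. Over 44 pairs with different numbers they correlated at -0.379 to 0.381, with 12 over 0.1. In groups of 2 arrays the deviations mirror each other, so these values cannot decide whether the replicate number pairs the samples. With the number as a replicate block, 208 genes were called on LSK d1 against medium d1, 103 on LSK d1, 8 in medium d1, 26 on LSK d2 and 4 on LSK d3 against d0, and 0 genes and 0 members between days. The block turned the sign of Wnt11 on LSK d1 against medium d1 (-0.085), of Wnt5b on LSK d3 against d0 (-0.036) and of Wnt4 on LSK d3 against LSK d1 (0.34).

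Other signs that turned belonged to differences that were not called. Quantile normalisation turned Wnt2 on LSK d3 against d0 (-0.060) and Wnt4 on LSK d3 against LSK d1 (0.017). The removal of the same 2 doubted arrays turned Ror2 on LSK d2 against d0 (1.81), Wnt5b on LSK d3 against d0 (-0.60) and LSK d1 (-0.42), Wnt11 on LSK d2 (0.012) and LSK d3 (-0.031) against LSK d1, and Wnt4 on LSK d3 against LSK d1 (0.75). With 1 array left out, the ranges that crossed 0 were 0 to 0.50 for Wnt5b on LSK d1 against medium d1, and against d0 -0.51 to 0.32 for Wnt5b on LSK d1, -1.74 to 1.81 for Ror2 on LSK d2, and on LSK d3 -0.0066 to 0.023 for Wnt2, -0.28 to 1.31 for Wnt4, -0.60 to 0.84 for Wnt5b and -0.52 to 0.093 for Wnt11. Against LSK d1 they were -0.031 to 0.029 for Wnt11 on LSK d2, and on LSK d3 -0.84 to 0.75 for Wnt4, -0.42 to 1.02 for Wnt5b and -0.031 to 0.40 for Wnt11. Wnt5b, Wnt11 and Lef1 lay at or near repeated low values, which limits what these arrays can show of them.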

Other observations

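The receptors of the pathway had levels that the comparisons above did not describe. Fzd1, a Frizzled receptor, averaged 12.1 at d0, 10.8 on LSK d1, 10.0 on LSK d2, 9.74 on LSK d3 and 11.4 in medium d1. Its difference of LSK d3 to d0 was -2.34 ± 0.89 and did not pass (limma, adjusted p = 0.274). Lrp6, the co-receptor of the canonical branch, averaged 11.02 at d0, 9.35 on LSK d1, 7.50 on LSK d2, 8.26 on LSK d3 and 10.4 in medium d1. The LSK d2 mean includes 4.13 on replicate 1, while the highest array of that group lay at 9.61. No other array of the series lay below 7.40. Lrp6 lay at 9.21 to 9.57 on LSK d1 and at 10.6 to 11.7 at d0, with no overlap, as was so for 39% of all genes. On LSK d3 it was called against d0 without LSK d2 replicate 1 (-2.76 ± 0.51, adjusted p = 0.0187, where 7.69% of all genes passed) and not with all arrays (adjusted p = 0.394). Ror1, the relative of Ror2, averaged 6.33 on LSK d1, 7.01 in medium d1 and 5.45 at d0, and was lower on LSK d1 than in medium d1 on every array, by a log2 difference of -0.69 ± 0.91 that did not pass (adjusted p = 0.819). LSK d1 and medium d1 were fully separated for 62.5% of all genes.

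Myc, a growth regulator and Wnt target, lay at 8.58 to 9.12 on LSK d1, 8.65 to 8.98 in medium d1 and 7.04 to 8.04 at d0. Its difference of LSK d1 to d0 was 1.38 ± 0.37 (adjusted p = 0.0929), and that to medium d1 was 0.06 ± 0.42 (adjusted p = 1).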
